A study of Drosophila melanogaster with 12 samples.

Results

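The genes described here are 72 of the 9981 genes in the tables, chosen by measured values as those whose RNA was lower in intestines with enterocyte *dMPC1* RNAi and about level in intestines of whole-animal *dMPC1* mutants. A member had a log2 ratio, computed on mean normalized counts + 1, of at most -1.3 for *dMPC1* RNAi over *mCherry* RNAi, and of under 0.5 in size for *dMPC1* mutants over precise excision controls. Its *mCherry* RNAi libraries averaged 50 normalized counts or more, and each *dMPC1* RNAi library lay below both *mCherry* RNAi libraries. Of the 76 genes with these values, *ninaD*, *Jon74E*, *aay* and *Lsd-1* were left out by name. Since these values selected the members, they are given as a description and without a test.

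RNA came from dissected intestines of adult flies labelled as the w1118 strain. In *dMPC1* RNAi animals (3 libraries) the *myo1A-GAL4* driver directed RNAi to enterocytes, and in *mCherry* RNAi animals (2 libraries) the same driver directed RNAi against a fluorescent protein that flies lack. Both carried *Tub-GAL80ts*, a temperature-sensitive GAL4 inhibitor that restricts RNAi to adults, and RNAi ran for 7 days from an age of 4 to 5 days. *dMPC1* mutants (2 libraries) were transheterozygous for a pair of deletion alleles and so lack the gene in all tissues from the start of life, while the controls (1 library) were homozygous for a precise excision of a P element, all aged 7 to 10 days. The 2 experiments differ in the reach of the loss, in its duration, in age and in genetic background, and these cannot be told apart. The study's figure legends give a shift to a warmer temperature for the 7 days of RNAi. No shift is stated for the mutants or their controls, so temperature is a further possible difference that cannot be told apart from the others. Of 12 labelled libraries, 8 were analysed here and the other 4 were not analysed here.

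The mitochondrial pyruvate carrier takes pyruvate, the end product of glycolysis, across the inner mitochondrial membrane. Enterocytes, the absorptive cells of the fly midgut, secrete digestive enzymes into the lumen, take up amino acids, sugars, lipids and ions through membrane transporters, and hold much of the enzymatic machinery that processes nutrients and foreign compounds. The members are described by role, as genes of luminal digestion, transport, metabolism, foreign compound handling and signalling, then 2 non-coding RNAs and 17 members with no role given. Roles were assigned with the members known, and their shares were not compared with those of other genes.

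The reads in genes were 12838791 to 14938336 with *dMPC1* RNAi, 14290610 and 14667770 with *mCherry* RNAi, 21918521 and 7362983 in *dMPC1* mutants and 12737636 in the precise excision library. *Mpc1*, the targeted gene, had 841, 803 and 820 normalized counts with *dMPC1* RNAi, against 3114 and 2936 with *mCherry* RNAi, and 5.31 and 13.7 in *dMPC1* mutants, against 1997 in the precise excision library. Its log2 fold change was -1.88 (standard error 0.08) with RNAi and -7.70 (standard error 0.47) in mutants, with adjusted p = 4.83e-05 and 0.000146 from limma. With RNAi the log2 fold change was -0.73 (standard error 0.18) for *CG9399*, which encodes the partner subunit, and -1.31 (standard error 0.16) for its paralog *CG9396*. *dMPC1* RNAi replicate 1 stood apart in its content of some egg chamber transcripts, whose summed level over 22 genes was 476 normalized counts there, 105 and 126 in replicates 2 and 3, and 94.3 to 107 with *mCherry* RNAi. The sum was 65.9 and 106 in *dMPC1* mutants, against 202 in the precise excision library. In *dMPC1* RNAi replicates 1, 2 and 3 *osk* had 90.5, 0.960 and 2.45 and *yl* had 95.1, 4.80 and 2.45. The eggshell genes *Cp15* and *Cp18* were instead lowest in replicate 1.

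**Figure D1:**
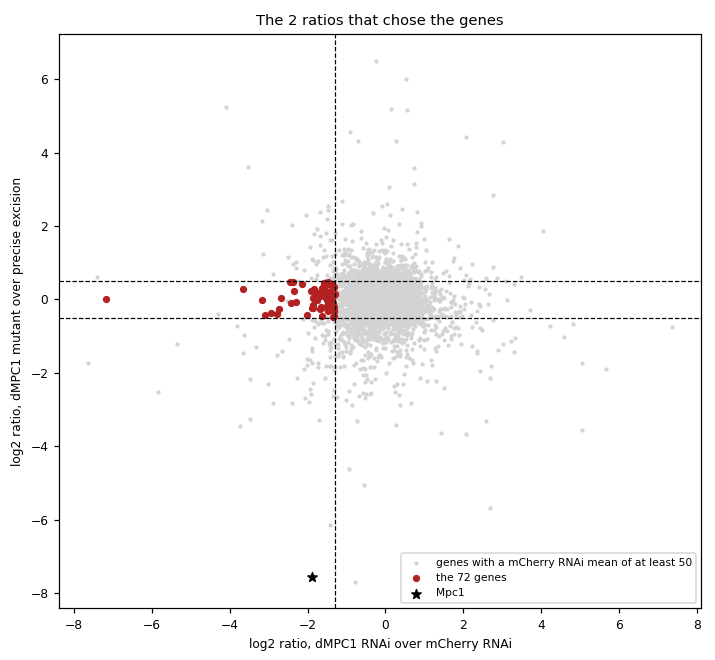
Each point is a gene. The horizontal axis is the log2 ratio of *dMPC1* RNAi over *mCherry* RNAi, the vertical axis that of *dMPC1* mutant over precise excision, and dashed lines mark -1.3 and the band of 0.5 that chose the genes. The 72 genes lie left of the line and inside the band, while *Mpc1* is low on both axes.

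With *dMPC1* RNAi the log2 ratios of the members ran from -7.16 to -1.303, the lowest being that of *CR45361*, which had 0 reads in every *dMPC1* RNAi library and so depends on the added count. They had a median of -1.58, or 2.99-fold lower, against a median of -0.03 over the 7345 genes with at least 50 normalized counts in *mCherry* RNAi. In mutants the members ran from -0.47 to 0.49, with a median of 0.05, against 0.01 over the same 7345 genes. Among 196 genes that met the RNAi part of the rule, 70 had a log2 ratio of at most -0.5 in mutants, 50 had one of at least 0.5, and 76 lay between. In the plot of both ratios the members lie in the middle of this spread. A lower count in a whole intestine can come from fewer cells of a type or from less RNA per cell, and these cannot be told apart here.

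The *mCherry* RNAi means of the members ran from 51.7, close to the minimum of 50 that the rule set, to 301476 normalized counts, with a median of 735. Together the members made up 2.20%, 1.95% and 1.89% of all normalized counts in the *dMPC1* RNAi libraries, against 5.21% and 4.78% in the *mCherry* RNAi libraries. They made up 3.19% and 3.68% in the *dMPC1* mutants, against 2.93% in the precise excision library. Between 78.2% and 84.2% of those counts came from only 4 genes, *betaTry*, *CG34220*, *CG5107* and *Muc68D*.

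limma called 60 of the 72 lower with *dMPC1* RNAi, where 6.71% of all 8921 genes tested were called lower. In the same way all 72 had *dMPC1* RNAi libraries below both controls, which 35.1% of the 7345 genes did. Both counts repeat the rule that chose the genes and carry no further information about them. The 12 members not called were *Eo*, *CG10621*, *CG5326*, *CG7296*, *Oatp74D*, *PGRP-SC1b*, *CG5404*, *pxb*, *svp*, *alpha-Est7*, *List* and *CG17739*. The count of called members was 72 without *dMPC1* RNAi replicate 1, 37 without replicate 2, 14 without *mCherry* RNAi replicate 1 and 19 without *mCherry* RNAi replicate 3, fits that rest on 4 libraries each.

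**Figure D2:**
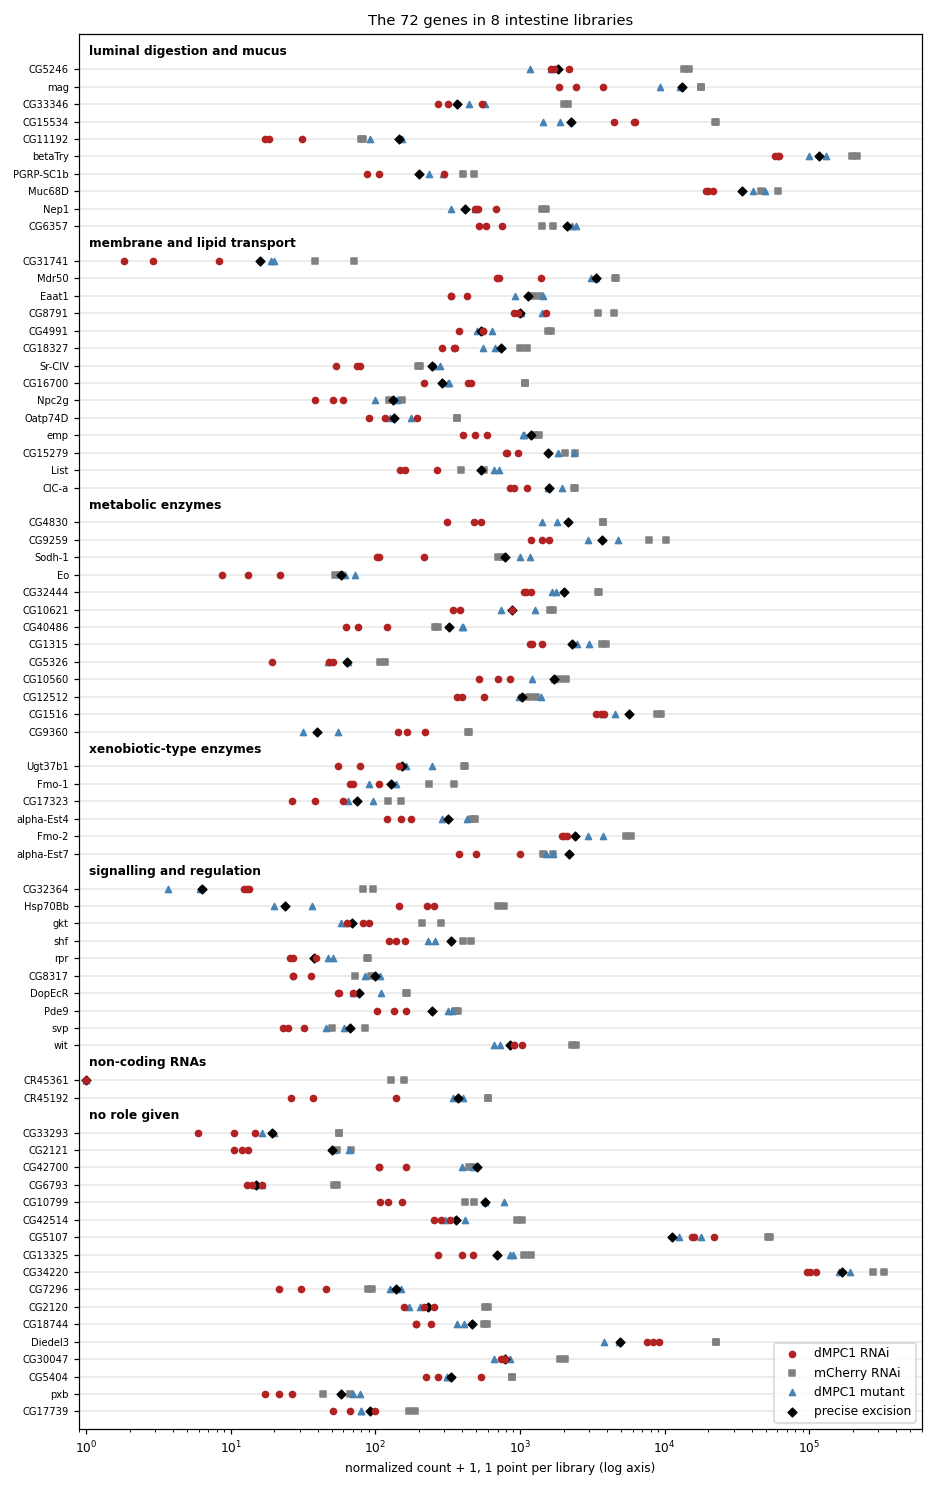
Normalized count + 1 on a log axis for each of the 72 genes, with 1 point per library and the genes grouped by role and ordered within a group by their log2 ratio with *dMPC1* RNAi. The *dMPC1* RNAi points lie left of the *mCherry* RNAi points in every row, and the mutant and precise excision points lie close together at levels that differ from row to row.

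The first class held 10 genes of luminal digestion and mucus, with log2 ratios of -2.94 to -1.34. *betaTry*, a trypsin that cuts dietary protein, was the most abundant of them. It had 62009, 60939 and 58301 normalized counts with *dMPC1* RNAi, against 213042 and 196422 with *mCherry* RNAi. In *dMPC1* mutants it had 98869 and 131242, against 116246 in the precise excision library, which lay within the mutant pair. Both groups of the mutant experiment thus sat between the RNAi groups. The neighbouring trypsin genes are near-identical in sequence, so the split of reads among them is uncertain. *alphaTry* averaged 145260 normalized counts with *dMPC1* RNAi and 204165 with *mCherry* RNAi, a log2 ratio of -0.49, while the much lower *deltaTry* had a log2 ratio of 1.49.

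*CG5246*, another trypsin-like serine protease, had the lowest ratio of the class. Its counts were 1637, 1716 and 2168 with *dMPC1* RNAi, against 13661 and 14691 with *mCherry* RNAi, a log2 ratio of -2.94. Its counts in the mutant experiment, 1177 and 1630.3 in *dMPC1* mutants and 1817 in the precise excision library, were as low as with *dMPC1* RNAi. *CG11192*, a scarce protease of the same fold, showed the opposite placing, with 30.2, 17.3 and 16.3 normalized counts with *dMPC1* RNAi, against 81.1 and 78 with *mCherry* RNAi. In the mutant experiment it had 91.4 and 152 in *dMPC1* mutants, against 144 in the precise excision library, all above the *mCherry* RNAi libraries.

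*mag* encodes Magro, a lipase and cholesterol esterase that enterocytes release into the lumen. It had 3751, 2440.4 and 1853 normalized counts with *dMPC1* RNAi, against 17947 and 17716 with *mCherry* RNAi, a log2 ratio of -2.73. In *dMPC1* mutants the counts were 9237 and 12842, against 13146 in the precise excision library, so both mutants lay below their control but far above every *dMPC1* RNAi library. *CG15534*, which resembles sphingomyelin phosphodiesterases, had 4439.6, 6199 and 6109 with *dMPC1* RNAi, against 22574 and 22226 with *mCherry* RNAi. Its counts of 1449.8 and 1901 in *dMPC1* mutants and 2256 in the precise excision library were below all 3 *dMPC1* RNAi libraries. Its paralog *CG15533* moved the other way, with log2 ratios of 2.07 with RNAi and -3.67 in mutants, and reads shared between the copies would make both values uncertain.

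*Muc68D*, a chitin-binding mucin of the gut lining, had 21441, 19877 and 19438 normalized counts with *dMPC1* RNAi, against 60584 and 46147 with *mCherry* RNAi. Mutant counts were 40628 and 49265, against 34278 in the precise excision library. The mutant counts lay above their control, replicate 2 within the *mCherry* RNAi pair. *PGRP-SC1b*, an amidase that cleaves bacterial peptidoglycan, had 298, 105 and 86.6 with *dMPC1* RNAi, against 401 and 477 with *mCherry* RNAi. Replicate 1 was far above the others, and the log2 ratio of -1.42 became -2.19 without it. The near-identical *PGRP-SC1a* had log2 ratios of -1.69 with RNAi and 1.74 in mutants, so the values of *PGRP-SC1b* are uncertain where the copies share reads.

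The other 3 of the class break down nucleic acids and peptides. *CG33346*, of the non-specific nuclease type, had 549, 316 and 269 normalized counts with *dMPC1* RNAi, against 2014 and 2141 with *mCherry* RNAi, a log2 ratio of -2.46. *CG6357*, a cathepsin-like cysteine peptidase, and *Nep1*, a neprilysin-type metallopeptidase, had log2 ratios of -1.34 and -1.39. They differed in the mutant experiment, where *CG6357* (2304 and 2448 in *dMPC1* mutants, 2124 in the precise excision library) lay above both *mCherry* RNAi libraries and the precise excision level of *Nep1*, 413, lay below every *dMPC1* RNAi library.

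**Figure D3:**
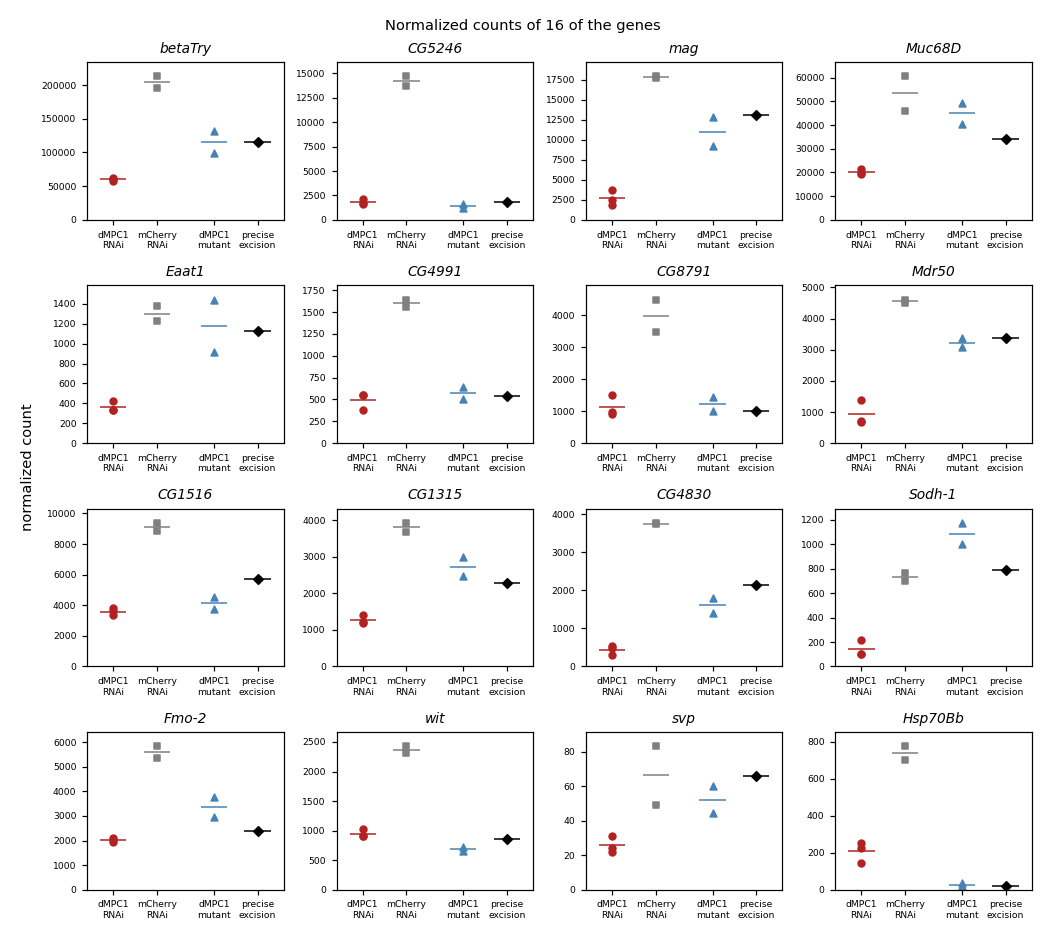
Normalized counts of 16 of the genes, with 1 point per library and a line at each group's mean, on axes that start at 0. *dMPC1* RNAi points lie below *mCherry* RNAi points in every panel. The precise excision point lies near the *dMPC1* RNAi level for *CG5246*, *CG4991*, *CG8791* and *wit*, and near the *mCherry* RNAi level for *Sodh-1* and *svp*.

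Transport across membranes and of lipids was the largest class with a role given, with 14 genes at log2 ratios of -3.65 to -1.303. *Eaat1*, an excitatory amino acid transporter that takes up glutamate and aspartate, had 334, 428 and 333 normalized counts with *dMPC1* RNAi, against 1381 and 1224 with *mCherry* RNAi. The mutant libraries held 918 and 1442, against 1129 in the precise excision library. The mutant pair spanned its control. Mutant replicate 1 and the precise excision library lay between the RNAi groups, and mutant replicate 2 lay above both *mCherry* RNAi libraries.

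*CG4991* and *CG16700* are amino acid transporters of the SLC36 type whose gene models overlap on the same strand of the X chromosome, so reads may be shared between them. *CG4991* had 379, 556 and 551 normalized counts with *dMPC1* RNAi, against 1643 and 1558 with *mCherry* RNAi. *CG16700* had 217, 438 and 454 with *dMPC1* RNAi, against 1075 and 1085 with *mCherry* RNAi. Replicate 1 was the lowest *dMPC1* RNAi library for both, unlike most members. In the mutant experiment *CG4991* had 504 and 639.8 in *dMPC1* mutants, against 539 in the precise excision library, and *CG16700* had 316 and 323 in *dMPC1* mutants, against 287 in the precise excision library. These levels were near those with *dMPC1* RNAi and below both *mCherry* RNAi libraries, whose high counts were part of what chose the members.

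*CG15279* and *List* are sodium-coupled transporters of the SLC6 family. *CG15279* had 795, 969 and 806 normalized counts with *dMPC1* RNAi, against 2385 and 2031 with *mCherry* RNAi. *List* had 266, 159 and 147 with *dMPC1* RNAi, against 564 and 389 with *mCherry* RNAi. Its whole span lies opposite *Hs3st-A*, which averaged 39.1 normalized counts with *dMPC1* RNAi and 5.25 with *mCherry* RNAi.

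*CG8791* belongs to the SLC17 family of organic anion and phosphate transporters and is on the list of copper and iron cell genes. It had 1507, 902 and 961 normalized counts with *dMPC1* RNAi, against 3489.5 and 4493 with *mCherry* RNAi. Counts of 1021 and 1430.2 in *dMPC1* mutants and 1006 in the precise excision library lay within the span of the *dMPC1* RNAi libraries. *Mdr50*, a P-glycoprotein-type exporter, had 1388, 691 and 715 with *dMPC1* RNAi, against 4516 and 4609.8 with *mCherry* RNAi. In *dMPC1* mutants it had 3077 and 3368, against 3370.0 in the precise excision library, all above every *dMPC1* RNAi library.

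*Oatp74D*, which imports the steroid hormone ecdysone, had 194, 115 and 89.1 normalized counts with *dMPC1* RNAi, against 367 and 366 with *mCherry* RNAi. Its mutant counts, 124 and 174, and its precise excision count, 133, fell inside the span of the *dMPC1* RNAi libraries. The chloride channel *ClC-a* and the mitochondrial carrier *CG18327* had log2 ratios of -1.303 and -1.68, and in both the mutant experiment lay between the RNAi groups.

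Lipid uptake was represented by *emp* and *CG31741*, of the CD36 scavenger receptor family, and by *Npc2g*, of the sterol-binding NPC2 family. *Sr-CIV*, a scavenger receptor of another family, was placed in the same class but is not on the list of sterol and lipid carrier genes. *emp* had 595, 491 and 404 normalized counts with *dMPC1* RNAi, against 1356 and 1265 with *mCherry* RNAi, and 1045 and 1062 in *dMPC1* mutants, against 1198 in the precise excision library. *CG31741* was scarce, with 7.32, 1.92 and 0.817 with *dMPC1* RNAi, against 37.3 and 69.7 with *mCherry* RNAi. Its log2 ratio of -3.65 became -2.25 with 10 in place of 1 as the added count, and -4.52 without *dMPC1* RNAi replicate 1. *Sr-CIV* and *Npc2g* had log2 ratios of -1.55 and -1.49, with mutant and precise excision counts close to or above the *mCherry* RNAi level.

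Among 13 metabolic enzymes the log2 ratios ran from -3.08 to -1.33. *CG1516* encodes pyruvate carboxylase, which turns mitochondrial pyruvate into oxaloacetate. It had 3344, 3790.2 and 3615 normalized counts with *dMPC1* RNAi, against 9378 and 8844 with *mCherry* RNAi. The *dMPC1* mutants had 3740.3 and 4506, against 5704 in the precise excision library, a log2 ratio of -0.47 that is among the closest to the edge of the band. Both mutant libraries lay below their control, and replicate 1 lay within the span of the *dMPC1* RNAi libraries.

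*CG1315* encodes argininosuccinate synthase, which joins citrulline and aspartate. Its counts were 1217, 1175 and 1408 with *dMPC1* RNAi, against 3926 and 3680.4 with *mCherry* RNAi. In *dMPC1* mutants they were 2471 and 2995, against 2279 in the precise excision library, both mutants being above their control. *CG10621*, a homocysteine S-methyltransferase that makes methionine, had 877, 384 and 342 with *dMPC1* RNAi, against 1695 and 1619 with *mCherry* RNAi, with replicate 1 far above replicates 2 and 3.

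Fatty acid handling was represented by the acyl-CoA synthetases *CG4830* and *CG12512* and the chain elongase *CG5326*. *CG4830* had 312, 538 and 481 normalized counts with *dMPC1* RNAi, against 3777 and 3739.6 with *mCherry* RNAi, a log2 ratio of -3.08. Mutant counts were 1416 and 1799.7, against 2149.8 in the precise excision library. *CG4830* was thus far lower with *dMPC1* RNAi than in any other library, and its mutants lay below their control (log2 ratio -0.42). *CG12512* and *CG5326* had log2 ratios of -1.45 and -1.51.

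*Sodh-1*, a sorbitol dehydrogenase of the polyol pathway that makes fructose, had 217, 102 and 105 normalized counts with *dMPC1* RNAi, against 762 and 699.7 with *mCherry* RNAi. In *dMPC1* mutants it had 999.7 and 1175, against 789 in the precise excision library, all above both *mCherry* RNAi libraries. It is among the members in which *dMPC1* RNAi alone was low. *CG32444*, an aldose 1-epimerase that interconverts sugar anomers, had 1187, 1093 and 1068 with *dMPC1* RNAi, against 3494 and 3479 with *mCherry* RNAi, and its mutant experiment lay between these.

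*CG9259* and *CG10560* resemble ecdysteroid kinases, and *Eo* encodes ecdysone oxidase. *CG9259* had 1597, 1412 and 1194 normalized counts with *dMPC1* RNAi, against 10165 and 7756 with *mCherry* RNAi, and 2929.9 and 4742 in *dMPC1* mutants, against 3718 in the precise excision library. The mutant pair spanned its control, between the RNAi groups. *CG10560* and *Eo* had log2 ratios of -1.50 and -1.92. Among other kinase-like genes of this kind, *CG10559* and *CG10562* had log2 ratios of 2.36 and 0.62 and *CG10553* had -0.74. The short-chain dehydrogenases *CG9360* and *CG40486* had log2 ratios of -1.33 and -1.62 and opposite placings, since the precise excision count of *CG9360* (38.7) was below every *dMPC1* RNAi library and that of *CG40486* (324) above both *mCherry* RNAi libraries.

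The 6 enzymes of the kind that act on foreign compounds were 2 flavin monooxygenases, 2 UDP-glycosyltransferases and 2 carboxylesterases, with cytochrome P450 and glutathione transferase names left out by the rule. *Fmo-2* had 2004, 2110.1 and 1955 normalized counts with *dMPC1* RNAi, against 5833 and 5373 with *mCherry* RNAi. In the mutant experiment *dMPC1* mutants had 2943 and 3770.4, against 2392 in the precise excision library. Its mutants were higher than their control by 0.49 on the log2 scale, the member nearest to the edge of the band. *Fmo-1* was scarcer, with 105, 65.3 and 68.6 with *dMPC1* RNAi, against 351 and 233 with *mCherry* RNAi.

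*Ugt37b1* and *CG17323*, which add sugars to small lipophilic molecules, had log2 ratios of -2.14 and -1.72. The carboxylesterases *alpha-Est4* and *alpha-Est7* lie in 1 cluster on 3R with 5 genes between them. *alpha-Est4* had 119.8, 149 and 176 normalized counts with *dMPC1* RNAi, against 484 and 465 with *mCherry* RNAi. *alpha-Est7* had 1005, 496 and 377 with *dMPC1* RNAi, against 1687 and 1448 with *mCherry* RNAi. The replicates ran in opposite order, with replicate 1 the lowest of the 3 for *alpha-Est4* and the highest for *alpha-Est7*.

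Signalling and regulation accounted for 10 members, at log2 ratios of -2.79 to -1.32. *wit* encodes the type II BMP receptor Wishful thinking. It had 1031, 913 and 904 normalized counts with *dMPC1* RNAi, against 2428 and 2305 with *mCherry* RNAi. The *dMPC1* mutants had 661 and 725, against 855 in the precise excision library, all below every *dMPC1* RNAi library. Other receptors of the TGF-beta superfamily, *tkv*, *babo*, *put* and *sax*, had log2 ratios of -0.36, -0.17, -0.10 and 0.35 with *dMPC1* RNAi.

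*svp* encodes Seven-up, an orphan nuclear receptor of the COUP-TF type. It had 31.1, 24 and 22.1 normalized counts with *dMPC1* RNAi, against 49.3 and 83.2 with *mCherry* RNAi, and 44.6 and 59.9 in *dMPC1* mutants, against 65.6 in the precise excision library. The *mCherry* RNAi pair was farther apart than its lower library was from any *dMPC1* RNAi library, and *svp* was among the members not called. *shf*, the fly relative of WIF1 that acts in Hedgehog movement, had 160.1, 138 and 123 with *dMPC1* RNAi, against 404 and 461 with *mCherry* RNAi. *DopEcR*, a membrane receptor for dopamine and ecdysteroids, *Pde9*, a cyclic GMP phosphodiesterase, and *CG8317*, which encodes the insulin-suppressing peptide Limostatin, had log2 ratios of -1.46, -1.45 and -1.47.

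*rpr* encodes the cell death activator Reaper. It had 24.7, 25.9 and 37.6 normalized counts with *dMPC1* RNAi, against 86.6 and 88.4 with *mCherry* RNAi, and 45.7 and 49.6 in *dMPC1* mutants, against 36.6 in the precise excision library. *hid*, a cell death gene of the same cluster, had a log2 ratio of -0.56 with *dMPC1* RNAi. *gkt*, a DNA repair phosphodiesterase, and *CG32364*, which encodes the RNA-binding protein Tumorous testis, had log2 ratios of -1.65 and -2.79.

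*Hsp70Bb*, an inducible chaperone gene, had 145, 226 and 252 normalized counts with *dMPC1* RNAi, against 704 and 776 with *mCherry* RNAi. In *dMPC1* mutants it had 35.6 and 18.8, against 22.6 in the precise excision library, far below both RNAi groups. The copies *Hsp70Bc* and *Hsp70Ba* averaged 19.2 and 13.7 with *dMPC1* RNAi, against 1.62 and 1.04 with *mCherry* RNAi. Copies this similar may share reads, so the value of *Hsp70Bb* is uncertain as a measure of that copy alone.

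Both non-coding RNAs had lower log2 ratios than most coding members. *CR45361* was at 0 in all *dMPC1* RNAi libraries, against 128 and 156 normalized counts with *mCherry* RNAi, and at 0 also in *dMPC1* mutants and the precise excision library. At a floor of 3 reads per library it was at least 52.8-fold lower with *dMPC1* RNAi, which covers counting error only. A gene with no reads in either group of the mutant experiment meets the mutant part of the rule trivially. *CR45192* had 137, 25 and 36 with *dMPC1* RNAi, against 602 and 601 with *mCherry* RNAi, and 343 and 400.3 in *dMPC1* mutants, against 372 in the precise excision library. It lies opposite the sugar transporter-like gene *CG1208*, which averaged 380 normalized counts with *dMPC1* RNAi and 282 with *mCherry* RNAi, and whether strand was used in counting is not given in the sources used here.

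For 17 members no role is given here, at log2 ratios of -2.43 to -1.31. *CG34220* was the most abundant gene of the module, with 110945, 100698 and 97228 normalized counts with *dMPC1* RNAi, against 328683 and 274269 with *mCherry* RNAi. The mutant libraries held 161282 and 190622, against 169004 in the precise excision library. It lies within the span of *oys* on the same strand, which averaged 2713 normalized counts with *dMPC1* RNAi and 1896 with *mCherry* RNAi. *CG5107* had 21872, 15908 and 15473 with *dMPC1* RNAi, against 52073 and 53460.0 with *mCherry* RNAi, and *Diedel3* had 9075, 8258 and 7499.8 with *dMPC1* RNAi, against 22560.1 and 22588 with *mCherry* RNAi. For both of these the precise excision count, 11225 and 4922, was below every *dMPC1* RNAi library.

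The *dMPC1* RNAi libraries were not alike over the members. Replicate 1 was the highest of the 3 for 50 members (69.4%), against 41.5% of the 7345 genes, and over 1.5 times the mean of replicates 2 and 3 for 23 members (31.9%), against 5.17%. Among the 124 other genes that met the RNAi part of the rule these shares were 51.6% and 28.2%, so the second was near that of the members. Per library, the median log2 ratio of the members to the *mCherry* RNAi mean was -1.45, -1.67 and -1.82 in replicates 1, 2 and 3. Replicate 1 is the library with the highest sum of egg chamber transcripts, and their part in this spread was not tested. Of the 72 members, 69 met the rule without replicate 1, as did 28 further genes. In *dMPC1* mutants the members were higher in replicate 2 than in replicate 1 for 63 genes (87.5%), against 56.4% of the 7345 and 84.7% of the 124 others. The members' median log2 ratios to the precise excision library were -0.13 in replicate 1 and 0.17 in replicate 2. The precise excision count lay within the mutant pair for 28 members (38.9%), against 19.1% of the 7345, a placing that the rule's band on the mutant ratio favours.

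Only 1 precise excision library was analysed, so the control level of each member rests on that library in the mutant experiment and on 2 *mCherry* RNAi libraries in the other. All libraries were scaled together, since the deposited size factors were 1.02 to 1.03 times those computed over the 8 libraries jointly. The precise excision count was below both *mCherry* RNAi libraries for 57 members (79.2%), against 45.9% of the 7345 genes, and under 50% of the *mCherry* RNAi mean for 30 members (41.7%), against 4.15%. It lay below every *dMPC1* RNAi library for 8 members (11.1%, against 33.4% of the 7345) and within them for 15 (20.8%, against 32.3%). It lay between the RNAi groups for 34 (47.2%, against 10.4%). For 5 it lay within the *mCherry* RNAi pair (6.94%, against 3.95%), and for 10 above it (13.9%, against 19.96%). The rule kept the RNAi groups apart in every member, which favours a placing between them. That placing held for 47.6% of the 124 others that met the RNAi part of the rule. For 52 members (72.2%) all 3 libraries of the mutant experiment were below both *mCherry* RNAi libraries. This held for 28.45% of the 7345 genes and for 58.9% of the 124 others that met the RNAi part of the rule.

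High counts in *mCherry* RNAi were part of what chose the members, so this placing is given without a test. The 124 other genes that met the RNAi part of the rule had a precise excision count below both *mCherry* RNAi libraries in 75% and under 50% of their mean in 43.5%, shares near those of the members. The controls differ in transgenes, age, background and possibly temperature, and these cannot be told apart. The 10 members whose precise excision count was above both *mCherry* RNAi libraries were *Sodh-1*, *CG11192*, *CG6357*, *Sr-CIV*, *CG40486*, *alpha-Est7*, *CG8317*, *CG42700*, *CG7296* and *CG10799*.

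**Figure D4:**
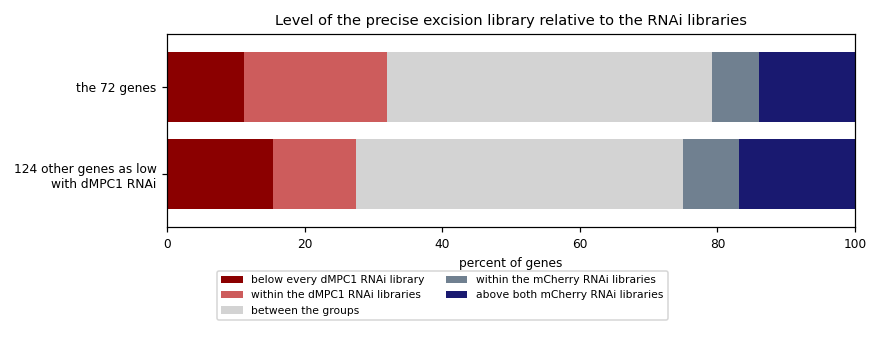
Percent of genes (horizontal axis) whose precise excision count lies below, within, between or above the libraries of the RNAi experiment, for the 72 genes and for 124 other genes with the same RNAi values. For 79.2% and 75% of them the count lies below both *mCherry* RNAi libraries, the first 3 segments of each bar.

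Of the 27 gene lists compiled, 9 hold a member. Members were chosen for low values with *dMPC1* RNAi, so counts and medians that include them are tilted towards lower. Of the 33 trypsin-like serine proteases tested that are not members, 9 were called lower and 3 higher with *dMPC1* RNAi. Among trypsin-like serine proteases, 11 of 35 tested were called lower and 3 higher with *dMPC1* RNAi, with a median log2 fold change of -0.51 against -0.01 over all genes tested. Over all genes, 7.03% were called higher with *dMPC1* RNAi. In *dMPC1* mutants 12 of the 35 were called lower and 2 higher, where 2.39% and 1.31% of 8794 genes tested were called lower and higher. *betaTry* and *CG5246* are 2 of the 11. The called genes with the largest changes outside the module were *CG18179* (-3.46, standard error 0.13) and *Try29F* (2.99, standard error 0.23).

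The transporter lists with a member also had more genes called lower than higher with *dMPC1* RNAi. With the members left out, 5 of 29 amino acid transporters were called lower and 2 higher. For SLC17-type transporters these counts were 5 lower and 0 higher of 15. Of 33 amino acid transporters tested, 9 were called lower, 4 of them members, and 2 higher, among them *CG1698* (1.87, standard error 0.13). The median log2 fold change was -0.34 over the amino acid transporters and -0.81 over the SLC17-type transporters. *gb*, the glutamate transporter Genderblind, was called lower (-1.55, standard error 0.12). Of 16 SLC17-type transporters 6 were called lower, *CG8791* among them, with *CG4288* (-3.19, standard error 0.21) and *CG9825* (-2.27, standard error 0.09) the lowest. In *dMPC1* mutants 7 of these 16 were called lower and 2 higher, and of 32 amino acid transporters 4 were called lower and 1 higher.

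Of 29 sterol and lipid carrier genes 12 were called lower, 3 of them members, and 2 higher, *Npc2e* (2.33, standard error 0.16) and *Npc2a* (2.09, standard error 0.22). Of 19 lipases 6 were called lower, *mag* among them, and 1 higher, with *CG17192* (-2.42, standard error 0.19) and *CG6283* (-2.34, standard error 0.22) the next lowest. Of 33 genes of fatty acid and triacylglycerol synthesis 7 were called lower, *CG3961* (-1.87, standard error 0.16) and *bgm* (-1.22, standard error 0.18) leading, while the member *CG5326* was not called. Median log2 fold changes with *dMPC1* RNAi were -0.55, -0.65 and -0.36 over these lists in turn. With the members left out, 9 of 26, 5 of 18 and 7 of 32 genes of these lists were called lower and 2, 1 and 0 higher. In *dMPC1* mutants 3 of 29 sterol and lipid carrier genes, 2 of 20 lipases and 3 of 33 synthesis genes were called lower, and 0, 1 and 1 were called higher.

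The remaining lists with a member hold stress, peritrophin, and copper and iron cell genes. Of 22 stress kinase and cytokine genes 8 were called higher with *dMPC1* RNAi, led by the cytokine genes *upd2* (4.85, standard error 0.29) and *upd3* (4.12, standard error 0.29), and *rpr* was the only one called lower. Of 25 peritrophin and chitin-binding genes 10 were called higher, led by *CG7298* (5.02, standard error 0.19) and *CG7017* (4.62, standard error 0.33), and 6 lower, *Muc68D* among them. Of 12 copper and iron cell genes *CG8791* was called lower and *CAH2* (0.60, standard error 0.10) higher, a call that 5 of 12 alternatives kept. The medians of the stress, peritrophin and copper and iron cell lists were 0.50, 0.54 and -0.24. With the members left out, 0 of 21, 5 of 24 and 0 of 11 genes of these lists were called lower and 8, 10 and 1 higher. In *dMPC1* mutants limma, edgeR and DESeq2 each called 0 of 22 stress genes, with 2 at an unadjusted p under 0.05 by limma. By limma 6 of 26 peritrophin and chitin-binding genes were called lower and 0 higher, and of 12 copper and iron cell genes 2 were called lower and 3 higher.

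Another 11 lists of gut or carrier genes hold no member. With *dMPC1* RNAi, 8 of 13 zinc carboxypeptidases were called lower and 0 higher, with a median log2 fold change of -1.28. Of 34 fatty acid oxidation genes 8 were called lower and 1 higher, of 19 SLC22-type transporters 8 lower, of 20 sugar transporters 6 lower and of 8 alpha-mannosidases 3 lower. Of 33 gut transcription factors 6 were called lower and 2 higher, of 17 Notch and progenitor genes 1 lower and 5 higher, and of 16 cytoskeleton and brush border genes of enterocytes 3 higher. Of 10 monocarboxylate transporters 2 were called lower, as were 2 of 24 metal transport and storage genes and 2 of 3 pyruvate carrier genes. In *dMPC1* mutants the calls were 3 lower of 12 zinc carboxypeptidases, 3 lower of 8 alpha-mannosidases, 4 lower and 2 higher of 24 metal genes, and at most 2 in either direction in each of the other 8 lists. The summed level of the cytoskeleton and brush border list, the check on the labelled tissue, was 129388 to 139898 normalized counts with *dMPC1* RNAi, against 105133 and 106775 with *mCherry* RNAi. In *dMPC1* mutants it was 95255 and 103160, against 123577 in the precise excision library. Enterocyte structural genes were thus well represented in each group. Their sum was higher with *dMPC1* RNAi than with *mCherry* RNAi, and lower in *dMPC1* mutants than in their control.

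No member is on the lists of other cells, but some of these lists were lower in the same libraries. The 16 Malpighian tubule genes found summed to 22078 to 24564 normalized counts with *dMPC1* RNAi, against 35950 and 41357 with *mCherry* RNAi, and 38821 and 45007 in *dMPC1* mutants, against 31881 in the precise excision library. Of these, 6 were called lower with *dMPC1* RNAi, though *Uro*, a defining tubule gene, had 2299, 5327 and 4930 with *dMPC1* RNAi, against 4880 and 5396 with *mCherry* RNAi. The 13 fat body genes found summed to 9533 to 13051 with *dMPC1* RNAi, against 26497 and 35401 with *mCherry* RNAi, mostly yolk protein transcripts. In *dMPC1* mutants they summed to 10132 and 11556, against 47658 in the precise excision library. *Lsp2* went the other way, with 5.49, 8.64 and 5.72 with *dMPC1* RNAi, against 0 in both *mCherry* RNAi libraries. It had 56.9 and 82.1 in *dMPC1* mutants, against 8.61 in the precise excision library. *Lsp1gamma* had 27.4, 21.1 and 31.0 with *dMPC1* RNAi, against 165 and 123 with *mCherry* RNAi. In mutants it had 49.4 and 53.0, against 11.8 in the precise excision library. Sums of the visceral muscle, hemocyte, and hindgut and trachea lists with *dMPC1* RNAi were 39765 to 40928, 2021 to 2313 and 2353 to 2746, against 44019 to 45705, 2141 to 2719 and 3320 to 3489 with *mCherry* RNAi. In *dMPC1* mutants these sums were 38800 to 39372, 2415 to 2706 and 2846 to 3308, against 59330, 5868 and 2818 in the precise excision library. The lone control was thus highest of all libraries for the muscle and hemocyte sums. In mutants 5 of 21 muscle and 5 of 11 hemocyte genes tested were called lower and 0 higher, where 2.39% of all genes were called lower. Enteroendocrine genes summed to 9963 to 10520 with *dMPC1* RNAi, against 8363 and 8669 with *mCherry* RNAi, and to 5930 and 6969 in *dMPC1* mutants, against 7286 in the precise excision library. The part of these cells in the members' levels was not tested.

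The members are spread over the genome, with 12 on chromosome arm 2L, 20 on 2R, 10 on 3L, 20 on 3R and 10 on X. Only 4 pairs lay within 5 genes of each other, *CG16700* and *CG4991*, *alpha-Est7* and *alpha-Est4*, *CG42700* and *CG17739*, and *pxb* and *CG5404*. In the annotation used, 30 members overlap another annotated gene, 21 of them a gene on the opposite strand, and 11 over more than 50% of their span. Neighbours and overlaps were not counted for other genes, so these counts have no share to be set against. Of the measured partners of the 11 members, *Hs3st-A* was called higher with *dMPC1* RNAi, and only *CG4991* and *CG16700*, partners of each other, were called lower.

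At the edges of the rule the members differed little from genes left out. *ClC-a* (-1.303), *CG17739* (-1.31) and *List* (-1.32) were the last inside the limit on the ratio with RNAi, and *CG14963* (-1.29), *Skeletor* (-1.29) and *CG5455* (-1.28) the next outside it. In mutants *Fmo-2* (0.49), *CG33346* (0.48) and *CG1516* (-0.47) were the last inside the band, and *LysB* (0.50), *CG11236* (-0.53) and *CG42255* (-0.55) the next outside it. *CG6793*, *CG31741* and *pxb* had the lowest *mCherry* RNAi means inside, 51.7, 53.5 and 54.2 normalized counts, and *CG14957*, *CG13794* and *Adh* the next outside, 46.7, 46.3 and 44.9.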

How the data were processed

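RNA-seq was measured in 12 labelled intestine libraries, of which 8 were analysed. Novoalign, DESeq and the dm3 assembly are named in the submitters' processing notes, and the study's methods name USeq and DESeq. Versions, counting options and strandedness were not given in the sources used here. Each deposited signal value is a gene's read count scaled by the authors with 1 size factor per library. In every library 100% of values came out as whole reads within 0.001 of a read. Columns of the authors' fold changes and adjusted p-values were not used.

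Both tables were joined on gene identifier, and the rule was applied to mean normalized counts + 1. The members and the 27 gene lists (671 entries, 563 found) were chosen with earlier results of these data known. Genes named are members, carrier subunits and, for each list with a member, up to 2 called genes with the largest change. Named after their values were seen were paralogs of members, BMP receptors, *hid*, genes overlapping members, and *Uro*, *Lsp2* and *Lsp1gamma*.

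The design foresaw edgeR for raw counts. As the values are normalized, log2(normalized count + 1) was fitted with limma 3.58.1 (trend option, R 4.3.3), keeping genes that averaged 10 or more in the compared libraries, each experiment on its own libraries. Calls required adjusted p (Benjamini-Hochberg) no higher than 0.01 and an absolute log2 fold change no lower than 0.6, and these fold changes understate the change of low genes. The method was tested on simulated data with the layout of the RNAi experiment only and the same relative spread set for every gene. The layout of the mutant experiment was not simulated. The lone precise excision control was taken to be as variable as the mutants. The study calls its replicates biological, and same-group libraries differed by more than sampling noise in each pair. Alternatives were another pseudocount, no filter, TMM scaling, edgeR 4.0.16, DESeq2 1.42.0, all libraries in 1 fit, the replicate number as a block and leaving out each library. Chromosome arms, neighbours and overlaps came from a BDGP6 annotation, a later build than dm3, so no coordinates are given. Promoter motifs, planned as a description, were not analysed here. Depth limits the precision of scarce genes, and intervals from reads cover counting error only.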

Additional observations from a re-analysis of the deposited data

How the results depend on the processing

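The rule gave 68 genes with an added count of 10, of which 64 are members, and 72 with TMM scaling, of which 71 are members. Without each library in turn it gave 61 to 97 genes. The median log2 ratio of the members was -1.71 to -1.57 with RNAi and -0.13 to 0.17 in mutants when each library was left out. Their ratio moved by over 1.5 times under an alternative for 7 members, *CG31741*, *CG32364*, *CG2121*, *CG33293* and *CR45361* with an added count of 10, and *CG31741*, *CR45192* and *PGRP-SC1b* without *dMPC1* RNAi replicate 1. The members called lower numbered 14 to 72 without each library, 59 to 69 with the other settings, apart from 55 with the replicate block.

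Over all genes, leaving out each library gave 59 to 1040 lower and 128 to 895 higher calls with RNAi, and 73 to 79 lower and 18 to 28 higher calls in mutants, the mutant counts from a fit of the remaining 7 libraries. With RNAi the highest counts, 1040 lower and 895 higher, were those without *dMPC1* RNAi replicate 1, and each other library left out gave fewer calls than all 5. The mutant counts compare with 210 lower and 115 higher from the 3 libraries of that experiment, and with 147 and 47 from all libraries in 1 fit. Why they differ was not tested. In mutants edgeR called 99 lower and 33 higher and the fit of all libraries 47 higher. Without the filter limma called 0 lower and 0 higher there, with 1842 genes at an unadjusted p under 0.05, against 269 lower and 126 higher by DESeq2, and *Mpc1* (-7.70) missed the threshold. The cause was not tested. The log2 fold change of *Mpc1* was -1.92 to -1.84 with RNAi and -8.31 to -7.09 in mutants over the fits without each library. Of 20 called genes outside the module whose call or limma fold change with RNAi is given, 12 kept their call under every alternative, and *CG17192*, *CG3961*, *CG6283*, *Npc2a*, *bgm*, *CAH2*, *CG9396* and *Hs3st-A* lost it without at least *mCherry* RNAi replicate 1. TMM scaling left the median of all genes at 0.00 with RNAi and 0.01 in mutants.

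The RNAi groups share replicate numbers 1 and 3 only, with nothing to say that a number marks a shared day. Deviations of same-numbered libraries correlated at -0.21 over 8921 genes. With the number as a replicate block, 447 genes were called lower and 392 higher. No paired analysis was possible in mutants because the groups share 1 number. With 1 control library, the mutant values cannot be checked against replicate error of that control.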

Other observations

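Families with a member differed in how their genes moved. Both *Fmo* genes are members, and the *PGRP-SC* genes *PGRP-SC1a*, *PGRP-SC1b* and *PGRP-SC2* had log2 ratios of -1.69, -1.42 and -0.38 with *dMPC1* RNAi. Among the Npc2 genes, *Npc2h*, too scarce for the rule, averaged 6.94 normalized counts with *dMPC1* RNAi and 36.5 with *mCherry* RNAi, beside a mean of 48.6 and 138 for the member *Npc2g*, while *Npc2c* averaged 58.7 with *dMPC1* RNAi and 5.89 with *mCherry* RNAi. The others were lower for *Npc2d* (-0.91), *Npc2f* (-0.81) and *Npc2b* (-0.48) and higher for *Npc2e* (2.35) and *Npc2a* (2.12), as log2 ratios with *dMPC1* RNAi. In mutants *Npc2h* and *Npc2g* had log2 ratios of 0.06 and -0.13, and *Npc2c* had -2.10. Of the carboxylesterases of the cluster that holds *alpha-Est4* and *alpha-Est7*, *alpha-Est5* averaged 808 with *dMPC1* RNAi and 333 with *mCherry* RNAi, a log2 ratio of 1.28, and *alpha-Est1*, *alpha-Est2* and *alpha-Est9* had ratios of 0.04, 0.00 and 0.05. *alpha-Est6*, listed at a mean of 3.00 with *dMPC1* RNAi and 13.3 with *mCherry* RNAi, and *alpha-Est10* had ratios of -1.84 and -0.58, and *alpha-Est3*, *alpha-Est8* and *alpha-Est4aPsi* had 0.16, 0.60 and 0.76.

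UDP-glycosyltransferases ran from -2.14 for the member *Ugt37b1* to 2.71 for *Ugt86Di* with *dMPC1* RNAi. *Ugt86Di* averaged 121 normalized counts with *dMPC1* RNAi and 17.6 with *mCherry* RNAi, and 25.2 in *dMPC1* mutants, against 111 in the precise excision library. *Ugt35b* and *Ugt86Dg* were as low with *dMPC1* RNAi as many members, with log2 ratios of -1.37 and -1.42, but higher in mutants, with 1.18 and 1.62. Among the ecdysteroid kinase-like genes, *CG10559* averaged 183 with *dMPC1* RNAi and 34.7 with *mCherry* RNAi, a log2 ratio of 2.36, against -1.50 for the member *CG10560*. *Thor*, which encodes the translation repressor 4E-BP, had a log2 ratio of -1.04 with *dMPC1* RNAi and 0.58 in mutants. These genes were chosen after their values were seen, and the values are given without a test.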
